A study of Mus musculus with 8 samples.

Results

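The genes described here are activation response genes, which myeloid cells transcribe within minutes to hours of a stimulus. The list was fixed by name: Dusp1, Cebpb and Batf, plus those of Fos, Jun, Junb, Egr1, Atf3 and Nfkbia that the panel measured. Of these 9 genes 6 were rows among the 754 genes of the table, namely Dusp1, Jun, Atf3, Nfkbia, Cebpb and Batf, and Fos, Junb and Egr1 were not analysed here. The choice went by gene name, but it was made with earlier results of these data known.

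The counts came from CD11b+ myeloid cells of the conjunctiva of female C57BL/6J mice aged 10 weeks, measured on a NanoString panel in which each count is 1 bar-coded probe bound to an RNA molecule. Mice were either non-stressed (NS) or exposed to desiccating stress over 5 days (DS5), that is, scopolamine given with the drinking water to lower tear secretion together with a draft from a fan. All mice were wild type, and conjunctivas were pooled and digested with collagenase before cells were sorted into MHCII+ cells and into MHCII- CD64+ cells with high, intermediate or low surface Ly6C (Ly6C-high, Ly6C-inter and Ly6C-low). Whether the counts include responses to the digestion and sorting was not tested. Each of the 8 conditions was 1 pooled sample, so there was no spread between replicates, no test between conditions was possible, and the 95% intervals given below are exact binomial intervals that cover counting error only.

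Stimuli such as bacterial products, cytokines and cell stress act on myeloid cells through MAP kinases and NF-kB. Both pathways induce their own brakes, Dusp1 as the phosphatase that inactivates p38 and JNK, and Nfkbia as the inhibitor (IkB alpha) that holds NF-kB in the cytoplasm. Jun and Atf3 are basic leucine zipper factors of the AP-1 and ATF families, and Atf3 is known for dampening inflammatory transcription in macrophages. Batf pairs with Jun proteins and IRF factors and is best known for its roles in lymphocytes and dendritic cells, and Cebpb (C/EBP beta) drives inflammatory and metabolic genes in monocytes and macrophages.

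Depth differed widely. The total over the 754 genes ran from 2728 counts in NS Ly6C-high to 39677 in NS MHCII+, and the limit of detection, the mean plus 2 SD of 8 negative control probes, ran from 11.2 to 22.99 counts per sample. Between 24 genes (NS Ly6C-high) and 291 genes (NS MHCII+) were above it. If every gene carried the mean negative control count, that background would come to 180% of the total in NS Ly6C-high, 101% in DS5 Ly6C-high and 109% in DS5 Ly6C-low, against 8.08% and 14.6% in the MHCII+ samples. The class II gene H2-Aa separated the gates, at 3419 and 2635 counts in the MHCII+ samples and 12 to 22 elsewhere. Fcgr1, which encodes CD64, was at 3 to 9 counts and below the limit in all MHCII- samples, and Ly6c1 was at 7 to 16 counts in 5 of them and at 583 in DS5 Ly6C-inter, so that the transcripts did not follow the Ly6C gates. DS5 Ly6C-inter stood apart in other genes too: Emp1, S100a10, S100a11 and Ly6c1 made up 25.4% of its total and 1.39% to 3.14% of the others. S100a9, taken from a list of neutrophil genes, was above the limit in both Ly6C-inter samples (16 counts in NS and 55 in DS5) and in no other. None of the rest of the 7 measured genes of that list was above the limit in any sample. In these 2 samples S100a8 was at 6 and 7 counts, and Ly6g was at 1 or 2 counts in all 8.

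To describe upstream sequence, the 250 bases before the annotated start of each gene were read from RefSeq (GRCm38.p6), which held all 6 genes. They were searched on both strands for 5 short motifs chosen with these sequences in view. The windows of Cebpb, which held no match, and of Batf are not printed. The windows printed here are those of Dusp1 (chr17:26508473-26508722, minus strand), Jun (chr4:95052223-95052472, minus strand), Atf3 (chr1:191183334-191183583, minus strand) and Nfkbia (chr12:55492648-55492897, minus strand), each written 5′ to 3′ along its gene. Capitals mark the core of the cAMP response element (ACGTCA or its complement TGACGT) in Dusp1 and Atf3, the related octamer TGACATCA in Jun and the kB-like GGANNTTCC in Nfkbia.
Dusp1: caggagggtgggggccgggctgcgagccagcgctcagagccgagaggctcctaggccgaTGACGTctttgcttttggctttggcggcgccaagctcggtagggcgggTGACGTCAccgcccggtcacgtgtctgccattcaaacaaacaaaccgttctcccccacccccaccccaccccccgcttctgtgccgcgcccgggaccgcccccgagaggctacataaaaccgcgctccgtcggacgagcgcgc
Jun: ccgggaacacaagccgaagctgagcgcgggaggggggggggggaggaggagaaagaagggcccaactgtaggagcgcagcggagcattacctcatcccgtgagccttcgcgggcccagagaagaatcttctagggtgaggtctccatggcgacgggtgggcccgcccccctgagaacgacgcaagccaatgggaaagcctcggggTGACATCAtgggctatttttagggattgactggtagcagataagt
Atf3: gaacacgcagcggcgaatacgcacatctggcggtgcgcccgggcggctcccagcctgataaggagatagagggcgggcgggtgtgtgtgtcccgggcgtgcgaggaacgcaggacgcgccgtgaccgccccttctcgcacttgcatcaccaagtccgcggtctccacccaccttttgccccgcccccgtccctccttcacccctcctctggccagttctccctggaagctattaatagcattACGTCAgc
Nfkbia: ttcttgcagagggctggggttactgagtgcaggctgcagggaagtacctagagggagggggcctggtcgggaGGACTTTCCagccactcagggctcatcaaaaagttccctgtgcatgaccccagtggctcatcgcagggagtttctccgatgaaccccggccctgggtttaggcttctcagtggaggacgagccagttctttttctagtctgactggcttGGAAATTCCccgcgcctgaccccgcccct
The Dusp1 window held 3 matches of the ACGTCA core, a pair of which overlap in the palindrome TGACGTCA, the Atf3 and Batf windows held 1 each, and 6.47% of all 32851 RefSeq windows of this length held any. The Jun octamer was in 2.93% of windows and the kB-like motif, found at 2 places in Nfkbia, in 3.59%. The Cebpb window held none of these letters, nor the C/EBP-like TTGCNNAA (9.56% of windows) or the AP-1 heptamer TGACTCA (4.46%). A match is a description of letters and says nothing about binding in these cells.

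Dusp1 was the member detected most firmly. Its counts were 898 in NS MHCII+, 21 in NS Ly6C-high, 157 in NS Ly6C-inter and 231 in NS Ly6C-low. In the stressed samples they were 702 in DS5 MHCII+, 49 in DS5 Ly6C-high, 411 in DS5 Ly6C-inter and 109 in DS5 Ly6C-low. All 8 counts were above the limit, and with Cebpb it was 1 of 13 genes of the panel for which that held. As a share of the panel total Dusp1 ran from 0.770% in NS Ly6C-high (95% interval 0.477% to 1.17%) to 3.98% in NS Ly6C-low (3.49% to 4.52%). Both Ly6C-high samples were lowest, the middle 5 samples lay between 2.26% and 2.89%, and none of the neighbours within those 5 differed beyond counting error. Samples further apart within those 5 could differ: DS5 MHCII+ over DS5 Ly6C-inter gave -0.32 on the log2 scale (-0.50 to -0.14). Of all 28 pairs of samples, 19 were apart beyond counting error. Steps larger than counting error in this order stood at the top, where NS Ly6C-low was above DS5 Ly6C-inter by 0.46 on the log2 scale (0.22 to 0.70), and between NS MHCII+ and DS5 Ly6C-high, at 0.86 (0.44 to 1.31).

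Cebpb, the other member above the limit in all 8 samples, had a different order. Its counts were 131 in NS MHCII+, 27 in NS Ly6C-high, 50 in NS Ly6C-inter and 106 in NS Ly6C-low. After stress they were 113 in DS5 MHCII+, 35 in DS5 Ly6C-high, 52 in DS5 Ly6C-inter and 26 in DS5 Ly6C-low. The share was highest in NS Ly6C-low, at 1.83% (1.499% to 2.21%), and that sample was above the next one, NS Ly6C-high at 0.990%, by 0.89 on the log2 scale (0.26 to 1.55). The other end held both MHCII+ samples and DS5 Ly6C-inter, at 0.330% to 0.373%, which did not differ from each other beyond counting error. DS5 Ly6C-low at 0.641% was above the nearest of them by 0.78 (0.11 to 1.41).

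Of the AP-1 and ATF members, Atf3 and Jun followed each other, while Batf, below the limit in 6 of 8 samples, had a Pearson r of -0.08 with Jun and 0.10 with Atf3 over the log2 shares of the 8 samples. Atf3 was at 275 counts in NS MHCII+, 8 in NS Ly6C-high, 97 in NS Ly6C-inter and 39 in NS Ly6C-low, and at 208 in DS5 MHCII+, 18 in DS5 Ly6C-high, 103 in DS5 Ly6C-inter and 30 in DS5 Ly6C-low. Jun was at 132, 4, 43 and 21 counts in the NS samples and at 78, 12, 65 and 21 in the DS5 samples, in the same order of populations. Atf3 was above the limit in 7 samples and Jun in 6, and the exceptions were all Ly6C-high samples. NS Ly6C-inter had the highest share of both, 1.63% for Atf3 (1.32% to 1.99%) and 0.723% for Jun (0.524% to 0.973%), and for Atf3 it was above the next sample, DS5 Ly6C-low, by 1.14 on the log2 scale (0.54 to 1.78). The other 7 samples were between 0.293% and 0.740% for Atf3, and no neighbours among them differed beyond counting error. For Jun no neighbours in the whole order did. Neighbours are the closest samples, and of all 28 pairs of samples 12 were apart beyond counting error for Atf3 and 11 for Jun.

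Nfkbia and Batf were close to the limit. Nfkbia was at 48, 6, 7 and 21 counts in NS MHCII+, Ly6C-high, Ly6C-inter and Ly6C-low, and at 40, 2, 9 and 4 in the same populations after stress. The MHCII+ samples and NS Ly6C-low were above the limit, with shares of 0.121%, 0.132% and 0.362%. Batf was at 44 counts in NS MHCII+ and 40 in DS5 MHCII+, and at 1 to 9 counts, below the limit, in all 6 MHCII- samples. The lowest value in the deposited table is 1, so a count of 1, as Batf had in NS Ly6C-high and in both Ly6C-low samples, is read as 1 or fewer. No neighbours in the order of either gene differed beyond counting error, while of all 28 pairs of samples 7 did for Nfkbia and 2 for Batf.

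**Figure D1:**
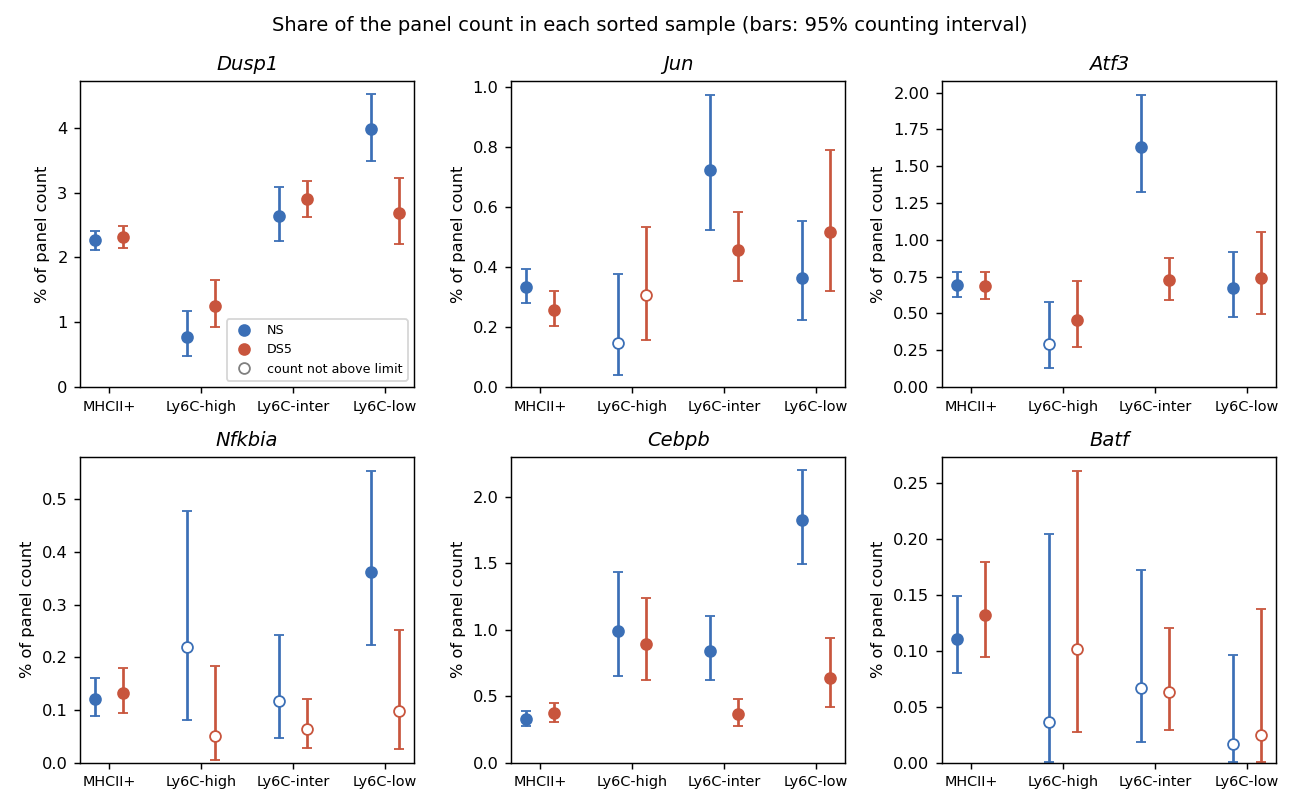
Share of the 754-gene panel count taken by each member, in percent, in the 4 sorted populations of NS (blue) and DS5 (red) conjunctiva. Points are single pooled samples, bars are 95% counting intervals and open points are counts not above the sample's negative control limit. Dusp1 was lowest in both Ly6C-high samples, Atf3 and Jun were highest in NS Ly6C-inter, and Cebpb was highest in NS Ly6C-low at 1.83%.

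Pooled RNA does not show whether a lower share comes from fewer cells of a type or less RNA per cell; these cannot be told apart here. The summed share of 9 macrophage genes (Adgre1, Csf1r, Cd68, Mrc1, C1qa, C1qb, C1qc, Mertk and Fcgr1) was 7.13% in NS Ly6C-inter, where Atf3 and Jun were highest, and 2.94% in DS5 Ly6C-inter. It was 1.87% and 1.53% in NS and DS5 Ly6C-high, with 0 of the 9 above the limit in both, and 3.20% to 4.26% in the MHCII+ and Ly6C-low samples. Its part in the levels of the members was not tested.

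The ratio of 2 genes within a sample does not depend on how samples are scaled, and different probes may count with different efficiency, so that its changes between samples can be read but not its value. The ratio of Atf3 to Jun was 2.08 in NS MHCII+, 2 in NS Ly6C-high, 2.26 in NS Ly6C-inter and 1.86 in NS Ly6C-low. In the DS5 samples it was 2.67, 1.5, 1.58 and 1.43 in the same order. The whole range was thus 1.87-fold over the 8 samples, and the exact interval of the difference excluded no change in 1 of 28 pairs of samples. Jun was below the limit in both Ly6C-high samples. The NS Ly6C-high ratio, from 8 and 4 counts, had an interval of 0.54 to 9.08. Pairs with these samples therefore say little about whether the ratio was constant. For the other 14 pairs of members the range was 3.01-fold to 42-fold, and between 4 and 19 of 28 sample pairs were apart beyond counting error. The widest ranges rested on Batf counts below the limit. Batf relative to Nfkbia, at 42-fold, had 4 of 28 pairs apart. Its low end, and that of Batf relative to Cebpb (37.5-fold) and to Dusp1 (18.9-fold), was the Batf count of 1 in NS Ly6C-low. Cebpb relative to Dusp1 was the least constant by that count, with 19 of 28.

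Counts of Cebpb per 100 counts of Dusp1 were 14.6 in NS MHCII+, 129 in NS Ly6C-high, 31.8 in NS Ly6C-inter and 45.9 in NS Ly6C-low. In the DS5 samples they were 16.1, 71.4, 12.7 and 23.9. Ly6C-high cells thus had the most Cebpb per Dusp1 in both conditions. In the Ly6C-high samples this ratio exceeded that of MHCII+ cells 8.81-fold in NS (4.63 to 16.9) and 4.44-fold in DS5 (2.66 to 7.32).

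**Figure D2:**
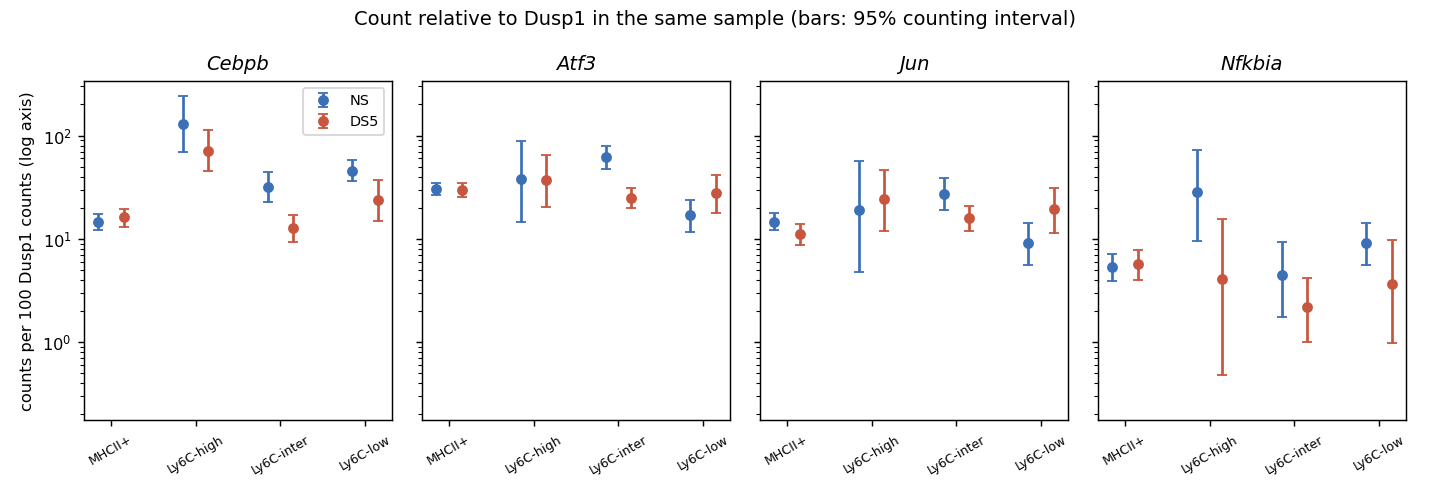
Counts of Cebpb, Atf3, Jun and Nfkbia per 100 counts of Dusp1 in the same sample, on a log axis, for NS (blue) and DS5 (red) in 4 populations. Points are single samples and bars 95% counting intervals. Cebpb reached 129 per 100 Dusp1 in NS Ly6C-high against 14.6 in NS MHCII+, while Atf3 lay between 16.9 and 61.8 in all samples.

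The first comparison was of stressed with non-stressed cells of the same gate. In MHCII+ cells the members were nearly level. The log2 ratios of DS5 over NS, after scaling to equal panel totals, were 0.03 for Dusp1 (-0.11 to 0.18), -0.02 for Atf3 (-0.28 to 0.25), -0.37 for Jun (-0.79 to 0.04), 0.12 for Nfkbia (-0.52 to 0.76), 0.17 for Cebpb (-0.20 to 0.55) and 0.25 for Batf (-0.41 to 0.90). No interval excluded 0, and those of Dusp1 and Atf3 reached at most 0.28 from 0. With a threshold of 1.5 on the log2 scale and a higher count above its sample's limit, 0 members were past it, against 1.06% of all genes.

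In Ly6C-low cells Cebpb was lower after stress, and Nfkbia was above the limit before stress and not after it. Cebpb went from 106 to 26 counts, a log2 ratio of -1.51 (-2.19 to -0.88), and Nfkbia from 21 to 4, a log2 ratio of -1.88 (-3.88 to -0.31). Both were past the threshold of 1.5, Cebpb by little, against 1.19% of all genes. The DS5 count of Nfkbia was below its limit of 12.5 and below the mean negative control count of 5.88, so Nfkbia passed through the NS count alone, and with counts raised to the limit its ratio was -0.23. Dusp1 was lower by less, -0.57 (-0.91 to -0.23), while Atf3 at 0.14 and Jun at 0.52 had intervals that included 0. The median was -0.44 over the 102 genes above the limit in either sample, and 0.52 over all genes. Dusp1 thus lay near the median of the detected genes, and Atf3 and Jun lay above it. Set against Dusp1, which needs no scaling, Cebpb was 1.92-fold lower after stress (1.16 to 3.26) and Jun 2.12-fold higher (1.05 to 4.26). The interval of Nfkbia relative to Dusp1 included no change. Macrophage genes made up 4.26% of the NS and 4.14% of the DS5 total in this gate. The sign of Cebpb, Nfkbia and Dusp1 was negative under all 11 other scalings, background rules and low-value rules tried, with Cebpb between -2.22 and -0.97, Nfkbia between -3.03 and -0.23 and Dusp1 between -1.27 and -0.03.

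In Ly6C-inter cells Atf3, Cebpb and Jun took a smaller share after stress and Dusp1 did not. The log2 ratios were -1.17 for Atf3 (-1.58 to -0.75), -1.20 for Cebpb (-1.79 to -0.61) and -0.66 for Jun (-1.24 to -0.07), and 0.13 for Dusp1 (-0.14 to 0.41). None was past 1.5, where 6.9% of all genes were. The median was -0.26 over all genes and -0.86 over the 136 genes above the limit in either sample. Jun lay above the second median, Atf3 and Cebpb lay below it, and Dusp1 was above both medians. Relative to Dusp1 the decreases were 2.47-fold for Atf3 (1.74 to 3.48), 2.52-fold for Cebpb (1.60 to 3.95) and 1.73-fold for Jun (1.10 to 2.71). The raw counts of Atf3 (97 and 103) and Cebpb (50 and 52) were nearly equal in both samples, while Dusp1 went from 157 to 411 and the panel total rose 2.39-fold, so the direction depended on the scaling. Leaving Emp1, S100a10, S100a11 and Ly6c1 out of the totals, a choice made after seeing the data, gave -0.79 for Atf3, -0.82 for Cebpb, -0.28 for Jun and 0.51 for Dusp1. The macrophage share was 7.13% in NS and 2.94% in DS5 of this gate, and its part was not tested.

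In Ly6C-high cells no member's interval excluded 0. Dusp1 went from 21 to 49 counts, a log2 ratio of 0.70 (-0.07 to 1.51), Atf3 from 8 to 18 (0.64, -0.63 to 2.05) and Cebpb from 27 to 35 (-0.15, -0.92 to 0.63). Jun, Nfkbia and Batf were below the limit in both samples. Of the members 0 were past the threshold with a count above the limit, and of all genes 0.531%. At this depth the interval of Atf3 held both no change and the threshold.

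**Figure D3:**
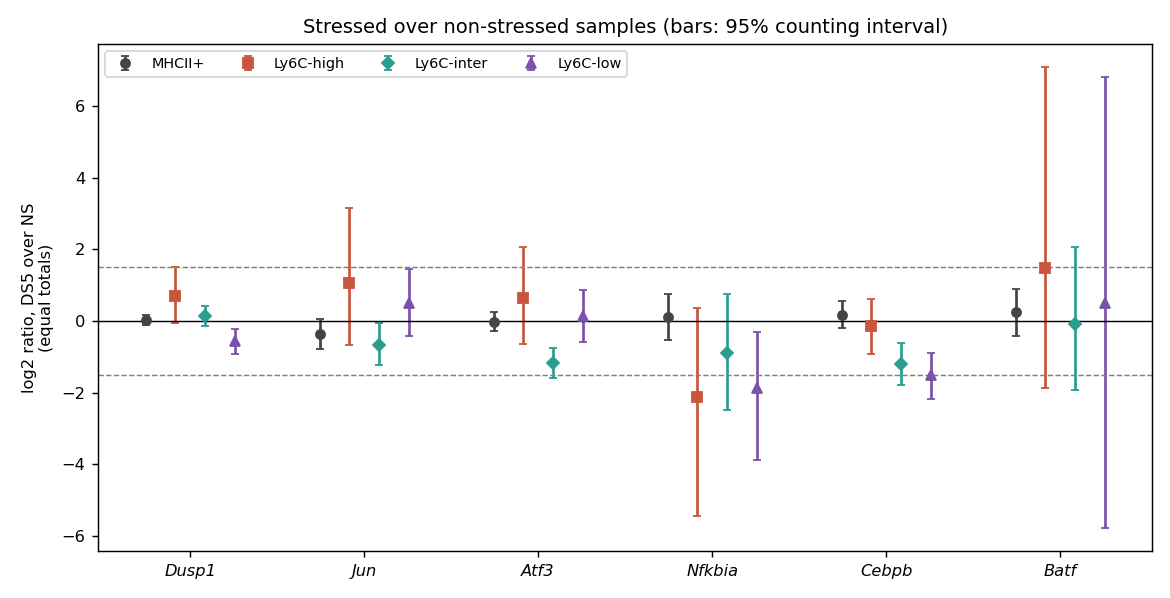
Log2 ratio of DS5 over NS for each member in 4 sorted populations, with counts scaled to equal panel totals. Bars are 95% counting intervals of 1 sample against 1 sample and dashed lines mark 1.5 in each direction. MHCII+ ratios lay between -0.37 and 0.25, and Cebpb and Nfkbia in Ly6C-low cells were the members past -1.5 with the NS count above the limit.

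The second comparison was of MHCII+ with MHCII- cells within 1 condition, with a threshold of 2 on the log2 scale. The total count of MHCII+ samples was 2.14-fold to 14.5-fold that of the MHCII- samples, and the median log2 ratio of all genes, most of them near background, was between -2.28 and -1.09 after scaling to equal totals. Directions here therefore depended on the scaling, which moves all genes of a comparison by the same amount and leaves their order.

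Cebpb had the lowest ratio of the members in MHCII+ cells against all 3 NS samples, though close to that of Atf3 against Ly6C-inter. Its log2 ratio of MHCII+ over MHCII- in NS was -1.58 against Ly6C-high (-2.19 to -0.93), -1.35 against Ly6C-inter (-1.83 to -0.85) and -2.47 against Ly6C-low (-2.85 to -2.09). In DS5 it was -1.26 (-1.82 to -0.67), 0.02 (-0.46 to 0.53) and -0.78 (-1.41 to -0.11) in that order. The difference from Ly6C-low in NS was past the threshold, and in raw counts MHCII+ was higher there (131 against 106). Relative to Dusp1, Cebpb was lower in MHCII+ cells than in all 3 NS MHCII- samples, 8.81-fold, 2.18-fold (1.48 to 3.19) and 3.15-fold (2.31 to 4.26).

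Batf was the member with the highest ratio in MHCII+ cells against all 3 NS samples and against DS5 Ly6C-low. Against NS Ly6C-high it was close to Dusp1 (1.60 and 1.56). Against Ly6C-low its log2 ratio was 2.69 in NS (0.13 to 8.02, from 44 counts against 1) and 2.42 in DS5 (-0.14 to 7.76, from 40 against 1), both past the threshold. The Ly6C-low counts were at the lowest deposited value and below the limit, so Batf passed through the MHCII+ count alone and the size of the difference is not measured. With counts raised to the limit the sign turned, to -1.30 in NS and -1.23 in DS5, and the DS5 value was no longer past the threshold with scaling to Ppia and Rpl19 or to the 13 genes above the limit in all samples, or with the negative control mean subtracted. Against Ly6C-high and Ly6C-inter the log2 ratios were 0.37 to 1.60 and their intervals included 0. The Batf counts of those samples were below the limit too.

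Dusp1 differed between MHCII+ and Ly6C-high cells in both conditions, with log2 ratios of 1.56 in NS (0.93 to 2.25) and 0.89 in DS5 (0.47 to 1.34). Against Ly6C-low in NS it was lower, at -0.82 (-1.03 to -0.60), and against Ly6C-inter in DS5 too, at -0.32 (-0.50 to -0.14). Atf3 was lower in MHCII+ than in Ly6C-inter cells in NS, at -1.23 (-1.57 to -0.89), and level in DS5, at -0.08 (-0.43 to 0.27). Jun gave -1.12 (-1.63 to -0.59) and -0.83 (-1.33 to -0.33) in the same comparisons. Nfkbia was lower in MHCII+ than in Ly6C-low cells in NS, at -1.58 (-2.35 to -0.77), and gave 0.42 (-1.05 to 2.36) in DS5.

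Read against all genes, the members past the threshold of 2 with a count above the limit were 0 against NS Ly6C-high (2.12% of all genes), 0 against NS Ly6C-inter (3.05%) and 2 against NS Ly6C-low (4.51%), namely Batf, higher, and Cebpb, lower. In DS5 they were 0 against Ly6C-high (3.18%), 0 against Ly6C-inter (5.97%) and 1 against Ly6C-low (3.18%), which was Batf.

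**Figure D4:**
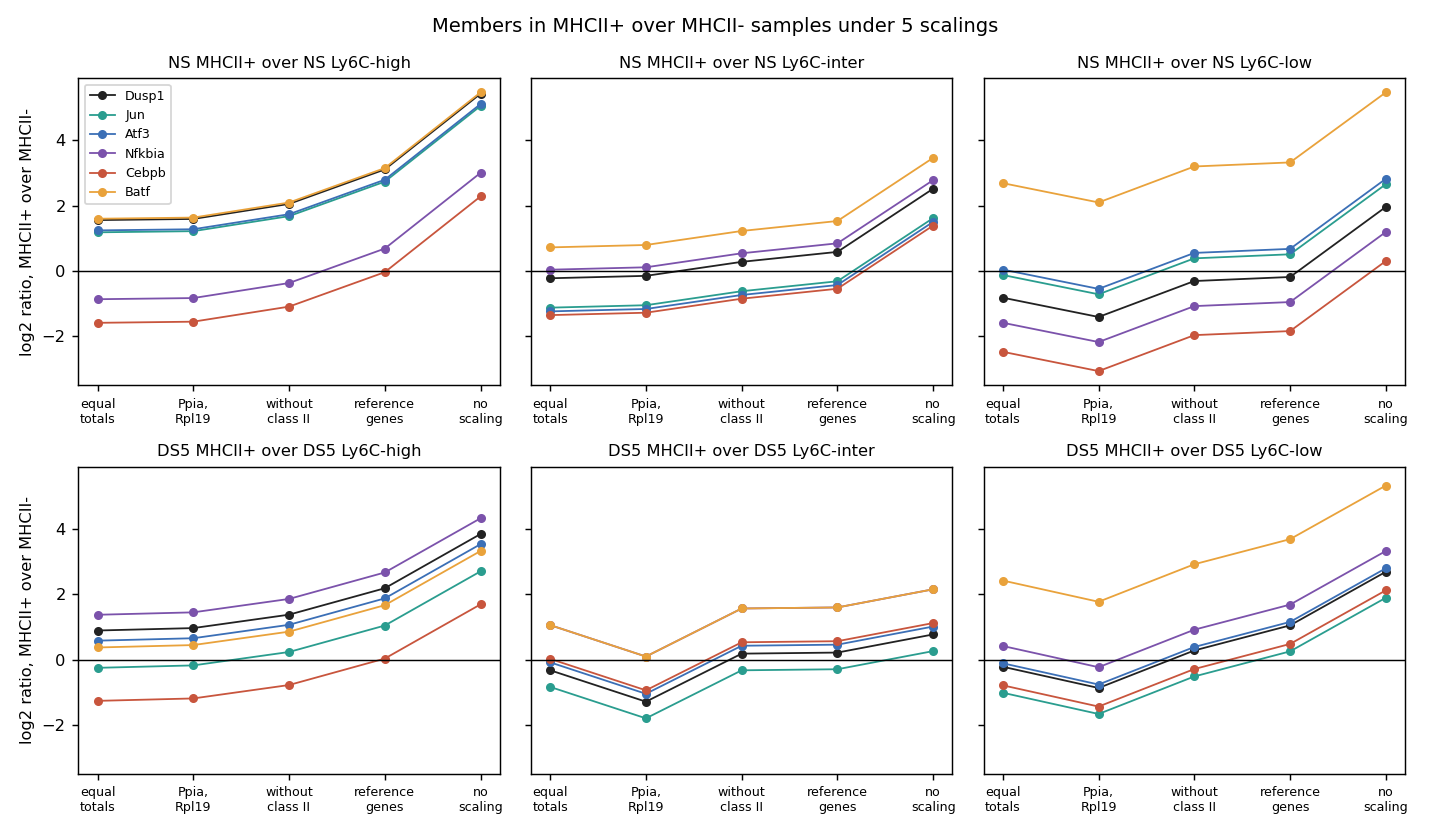
Log2 ratio of MHCII+ over each MHCII- sample for the 6 members in NS (top) and DS5 (bottom) under 5 scalings, joined by lines. Scaling moves all members of a panel together: Cebpb against NS Ly6C-low went from -2.47 with equal totals to 0.31 without scaling, while its place below the other members stayed.

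The wider pathways were read from 6 lists. Of the AP-1 and ATF family 7 of 16 listed genes were measured, of the C/EBP family 4 of 6, of NF-kB subunits and inhibitors 6 of 16, of MAP kinases and dual specificity phosphatases 12 of 28, of early response genes 16 of 25 and of inflammatory target genes 20 of 23. In MHCII+ cells 0 genes of any list were past 1.5 between DS5 and NS. In Ly6C-low cells the NF-kB list held 2 genes past it, both lower in DS5, Nfkbia and the related nuclear regulator Nfkbiz, which went from 43 to 8 counts (log2 ratio -1.91, -3.21 to -0.81). The DS5 counts of both were below the limit of 12.5. The median of that list was -0.83, and -0.17 without Nfkbia, against 0.52 over all genes, most of them near background, and -0.44 over the 102 genes above the limit in either sample.

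In Ly6C-inter cells the early response list had a median log2 ratio of -0.97 and the inflammatory targets -0.88, against -0.26 for all genes and -0.86 for the 136 genes above the limit in either sample, so that both lists lay near the detected genes. Past 1.5, where 6.9% of all genes were, and lower in DS5 were 2 of 16 early response genes, Klf10 and Socs3, and 2 of 20 targets, Il1b (25 and 11 counts, -2.44, -3.61 to -1.36) and the monocyte chemokine Ccl2 (182 and 152 counts, -1.52, -1.84 to -1.20). Among the MAP kinases Mapk14 (p38 alpha) was lower, at 12 and 6 counts, and the kinase Map2k1 higher, at 3 and 36 counts. The NS count of Mapk14 was barely above its limit of 11.16. The lower counts of Klf10, Socs3, Il1b, Mapk14 and Map2k1 were below their limits, so these genes passed through 1 count alone. Ccl2 and Socs3 (-1.56) were past 1.5 by little, and not with totals without Emp1, S100a10, S100a11 and Ly6c1. In Ly6C-high cells the early response factor Klf4 was past 1.5, at 4 and 17 counts with an interval of -0.06 to 3.59. The lists share members with the 6 genes and with each other.

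Between MHCII+ and MHCII- cells a few other genes of these lists were past 2, to be read beside the shares of all genes given above. In NS the adhesion molecule Icam1 and the interleukin antagonist Il1rn were higher in MHCII+ than in Ly6C-high cells. Against NS Ly6C-inter, Il1a and Il6 were higher and Klf10 (15 against 15), Tnf (28 against 19) and Vegfa (9 against 12) lower. Vegfa was also lower than in NS Ly6C-low cells (9 against 26). In raw counts Klf10 was equal and Tnf was higher in MHCII+, so their direction depended on the scaling. In DS5 Ccl2 was higher in MHCII+ than in Ly6C-high cells (369 against 11). Against DS5 Ly6C-inter, Il1b (290 against 11), Cxcl10 (42 against 4) and the phosphatase Dusp2 (28 against 3) were higher and Map2k1 (13 against 36) lower. Against DS5 Ly6C-low, Il6 (62 against 1) and Il1rn (108 against 2) were higher and Vegfa (13 against 15) lower. Every gene named as higher had an MHCII- count below the limit, so the sizes of these differences are not measured. The MHCII+ counts of Vegfa in both conditions and of Map2k1 in DS5 were below the limit too.

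Across the 8 samples the shares of the members were also set against 96 genes above the limit in at least 4 samples, as a description, since the samples share depth and scaling. Closest to Dusp1 were the scavenger receptor gene Cd163 (Pearson r = 0.92 of log2 scaled counts) and the complement genes C1qb (0.89) and C1qc (0.87). Among those closest to Jun were Klf4 (0.96) and the chemokine Ccl12 (0.92), and closest to Atf3 were the lysosomal protease Ctsd (0.96), the chemokine Ccl7 (0.94) and Ccl12 (0.92). Among the genes closest to Cebpb were Cxcr4 (0.89) and Ptgs2 (0.89). Among the members themselves Jun and Atf3 had r = 0.90, and Dusp1 had 0.72 with Jun and 0.73 with Atf3 but -0.07 with Cebpb. On raw counts the nearest gene stayed Klf4 for Jun and Ctsd for Atf3, and became Ifngr1 for Dusp1 and Ptgs2 for Cebpb.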

How the data were processed

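Counts of 754 genes, 8 negative and 6 positive control probes were measured with the NanoString nCounter Mouse Myeloid Innate Immunity panel in 8 pooled sorted samples, 1 per condition. The deposited values are raw counts as the authors exported them, whole numbers with a minimum of 1, with no normalization or background subtraction in them. Counts were scaled to equal totals over the 754 genes, with no pseudocount. Shares, ratios and ratios relative to Dusp1 were given exact 95% intervals (Clopper-Pearson and conditional odds ratio; scipy 1.17.1, numpy 2.4.6, pandas 2.3.3, Python 3.11.15), which were tested on simulated data. Thresholds were a log2 ratio of 1.5 between DS5 and NS and 2 between populations, with the higher count above the mean + 2 SD of the negative controls. With 1 sample per condition no p-value was computed. The scaling, background, low-value and threshold alternatives are given with their effects at the end.

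The members, lists, tests and alternatives were chosen with earlier results of these data known. Named genes were the measured members, up to 5 list genes per comparison past the threshold with a count above the limit, the 3 genes most correlated with each member, and sort markers. Some genes that these rules name are not reported here, and the macrophage list was used without 1 of its genes. Emp1, S100a8, S100a9, S100a10, S100a11 and Ly6g were named after their values were seen. Of the marker lists, B cell, NK cell, mast cell, endothelial and epithelial genes were not above the limit in any sample, and no gene of the T cell list was measured.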

Additional observations from a re-analysis of the deposited data

How the results depend on the processing

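With 1 sample per condition, precision was limited by counting error and unknown sample-to-sample spread, and in the MHCII- samples by counts near the negative controls. No paired analysis was possible because each group held 1 sample, and no replicate could be left out. Of 24 DS5 over NS values, log2(scaled value + 1), a floor of 1 and totals without class II genes kept the sign of 24, reference genes of 19, positive controls of 13 and no scaling of 11. Of 36 MHCII+ over MHCII- values, no scaling and positive controls kept 17.

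The number of members past the threshold changed as follows. In Ly6C-high cells, DS5 over NS, it was 1 (Atf3) with the negative control mean subtracted. In Ly6C-inter cells it was 2 (Atf3 and Cebpb) both with totals over the 13 genes above the limit in every sample, which include Dusp1 and Cebpb, and with a threshold of 1. In Ly6C-low cells it fell to 0 with those 13 genes, and to 1 both with the negative control mean subtracted (Nfkbia remained) and with counts raised to the limit (Cebpb remained). For NS MHCII+ over Ly6C-high it was 4 after scaling to reference genes (all higher), 6 both on raw counts and on positive controls (all higher), 1 with the 13 genes (Cebpb, lower), 3 with the negative control mean subtracted (Jun and Atf3 higher, Cebpb lower), 2 with totals without class II genes (Dusp1 and Batf, higher) and 5 with a threshold of 1. For NS MHCII+ over Ly6C-inter it was 3 without scaling and with positive controls (Dusp1, Nfkbia and Batf, all higher), 3 with the 13 genes and with a threshold of 1 (Jun, Atf3 and Cebpb, all lower), and 1 with the negative control mean subtracted (Batf, higher). For NS MHCII+ over Ly6C-low it was 1 with reference genes and with totals without class II genes (Batf), 1 with counts raised to the limit (Cebpb), 3 without scaling and with positive controls (Jun, Atf3 and Batf, all higher), and 3 with Ppia and Rpl19 and with the 13 genes (Batf higher, Nfkbia and Cebpb lower). For DS5 MHCII+ over Ly6C-high it was 2 with reference genes and with a threshold of 1, 5 without scaling and with positive controls (all higher), and 1 with the 13 genes (Cebpb, lower). For DS5 MHCII+ over Ly6C-inter it was 2 without scaling, with positive controls, with the negative control mean subtracted and with a threshold of 1. For DS5 MHCII+ over Ly6C-low it was 5 without scaling, 6 with positive controls, 2 with a threshold of 1, 1 with the 13 genes (Jun, lower, in place of Batf), and 0 with Ppia and Rpl19, with the negative control mean subtracted and with counts raised to the limit.

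Cebpb in NS MHCII+ over Ly6C-low turned to 0.31 without scaling and 0.32 with positive controls. Batf in MHCII+ over Ly6C-low turned to -1.30 in NS and -1.23 in DS5 with counts raised to the limit, where the limit stands in for the Ly6C-low counts. The cause of the other changes was not tested.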
